A study of Mus musculus with 8 samples.

Results

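The 8 SVF samples of the diet intervention model were divided by their epididymal signal, taken as the level of Crisp1 (chromosome 17), which encodes a protein secreted by the epididymal epithelium that coats sperm. The 4 samples with a Crisp1 level of 300 CPM or more were called Crisp1-high, and the other 4 samples, all below 300 CPM, were called Crisp1-low. CPM is the deposited count of a gene after scaling each sample to 1000000 counts. Each side held 2 control Ab-treated and 2 anti-BAFF Ab-treated mice, so that treatment and side were balanced. Crisp1-high samples came from mice 2 and 6 (control Ab) and mice 5 and 7 (anti-BAFF Ab), and Crisp1-low samples from mice 1 and 9 (control Ab) and mice 8 and 10 (anti-BAFF Ab). Because these same libraries set the sides, counts of genes past the threshold between the sides are given as a description only, without p-values for single genes. Levels, log2 differences, their medians and their SEs between the sides are likewise descriptions. Tests were read only for treatment and for its interaction with side.

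All mice were male C57BL/6J that started the HFD (60% of calories from fat) at 6 weeks of age according to the series' design text, whereas the study's methods give older ages, and stayed on it for 12 weeks. They were then moved to NCD (16% of calories from fat) and injected with 2 mg/kg of control Ab (an IgG1 kappa isotype antibody) or anti-BAFF Ab (clone Sandy-2) every 2 weeks for 6 weeks, until week 18. A single gonadal fat pad per mouse was digested with collagenase, the floating adipocytes were removed and red blood cells were lysed, and the remaining SVF was sequenced in bulk, one library per mouse. BAFF is a survival factor for B cells, and no group lacked the diet change. The labels give no library or sequencing batch.

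The epididymis is the coiled duct in which sperm leaving the testis mature, and the gonadal fat pad of male mice lies against it. Its epithelium is divided along its length into the initial segment, caput, corpus and cauda, and each stretch secretes its own mixture of lipocalins, beta-defensins, RNase-like proteins and protease inhibitors, largely under androgen control. The seminal vesicle and the prostate, further down the same tract, make other secretory proteins.

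Totals were between 13562340 and 18548024 counts over 54532 genes, at which 3 counts, the detection floor used here, correspond to at most 0.221 CPM. The tissue label fitted its markers on both sides. Summed over 10 macrophage genes the samples held 9217 to 12133 CPM (high side) and 9212 to 14383 CPM (low side), and over 7 adipocyte progenitor genes 1802 to 1994 CPM and 1672 to 2226 CPM. The 7 adipocyte genes summed to 128 to 145 CPM on the high side and 109 to 139 CPM on the low side.

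Crisp1 itself was at 1024 CPM in mouse 7, 748 CPM in mouse 2, 593 CPM in mouse 6 and 532 CPM in mouse 5, and at 95.3 CPM in mouse 9, 93.6 CPM in mouse 8, 34.7 CPM in mouse 10 and 2.96 CPM in mouse 1. The members nearest the limit of 300 CPM were thus mouse 5 inside and mouse 9 outside. No sample lacked Crisp1, the lowest having 48 counts. Adam7 (chromosome 14), a membrane protein of the ADAM family made in the caput, was at 349 CPM in mouse 7, 351 CPM in mouse 2, 85.4 CPM in mouse 6 and 130.4 CPM in mouse 5, against 6.06 CPM in mouse 9, 13.5 CPM in mouse 8, 10.03 CPM in mouse 10 and 3.58 CPM in mouse 1. Ranking by Adam7 gave the same side for all 8 samples, although the order within each side differed. In bulk RNA, fewer epididymal cells and less RNA per cell cannot be told apart.

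**Figure D1:**
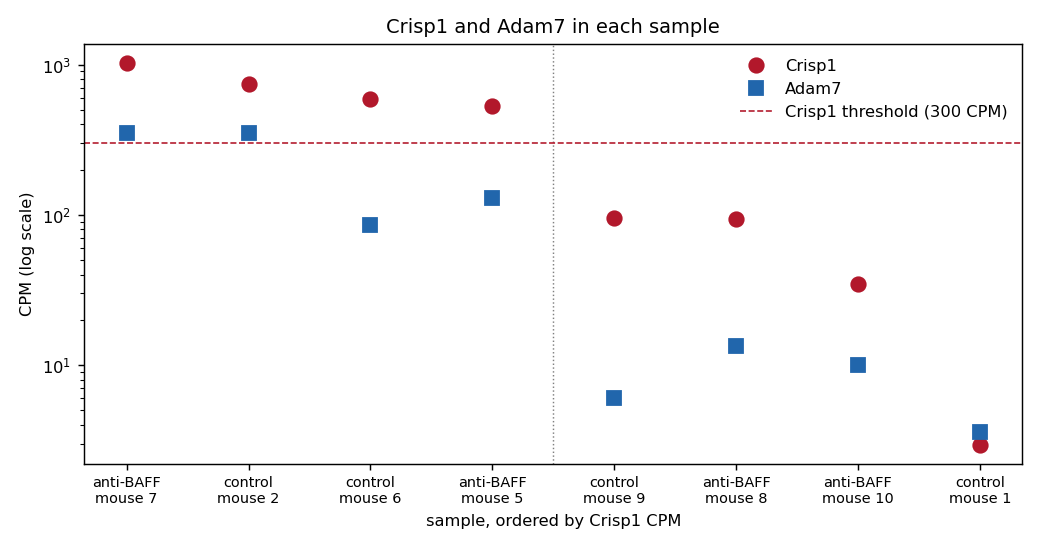
Crisp1 and Adam7 levels (y axis, CPM, log scale) in the 8 samples (x axis, ordered by Crisp1). The dashed line is the Crisp1 threshold of 300 CPM and the dotted line parts the 4 Crisp1-high from the 4 Crisp1-low samples. The sides do not overlap in Adam7, and in Crisp1 they cannot, since Crisp1 set them.

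The sequences just upstream of 3 genes are shown because their patterns over the samples differ, as described for each of them below: Crisp1, which set the sides, the lipocalin Lcn5, which was absent from part of the Crisp1-high samples, and the protease inhibitor gene Wfdc10, which was present in all of them. They are the 250 bases before the RefSeq start in GRCm38.p6, at chr17:40319208-40319457 (minus strand), chr2:25657702-25657951 (plus strand) and chr2:164655796-164656045 (plus strand), written 5′ to 3′ along the gene with TATAAA in capitals.
Crisp1: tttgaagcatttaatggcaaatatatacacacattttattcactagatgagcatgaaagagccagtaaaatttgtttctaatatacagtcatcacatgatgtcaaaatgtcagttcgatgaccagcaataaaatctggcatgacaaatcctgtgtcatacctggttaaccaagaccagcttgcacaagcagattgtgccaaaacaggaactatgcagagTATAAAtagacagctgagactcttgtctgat
Lcn5: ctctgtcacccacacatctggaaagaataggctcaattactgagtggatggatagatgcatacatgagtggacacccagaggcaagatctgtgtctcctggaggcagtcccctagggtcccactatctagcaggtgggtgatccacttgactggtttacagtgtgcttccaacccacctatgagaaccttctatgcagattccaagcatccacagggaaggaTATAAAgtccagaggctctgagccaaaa
Wfdc10: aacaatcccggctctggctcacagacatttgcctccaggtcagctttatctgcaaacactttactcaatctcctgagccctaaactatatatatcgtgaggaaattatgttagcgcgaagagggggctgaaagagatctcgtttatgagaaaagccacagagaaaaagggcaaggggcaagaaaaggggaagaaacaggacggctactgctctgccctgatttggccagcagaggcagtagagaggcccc
TATAAA began 31 bases before the start in Crisp1 and 28 bases before it in Lcn5, and the Wfdc10 window held none. Over the promoters of all genes of the RefSeq table, TATAAA on the gene's strand within 40 bases of the start occurred in 2.55%, and it occurred in 3 of the 64 listed epididymal genes with a promoter entry (4.69%), in 0 of 25 (0%) among the genes called higher in the Crisp1-high samples and in 1.6% of tested genes. A match is a description of letters in this window only.

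Across all genes, 34 genes other than Crisp1 were higher and 0 lower in the Crisp1-high samples (edgeR quasi-likelihood fit with treatment as a covariate, adjusted p limit 0.05), which is 0.208% and 0% of the 16380 genes tested. Before adjustment, 776 genes were higher and 216 lower at a p of 0.05. Nothing is read from these counts, since the rule used the same contrast. The differences of the 34 genes were 2.25 to 6.26 on the log2 scale with a median of 4.15, against a median of -0.02 over all genes tested. All 34 had every Crisp1-high sample above every Crisp1-low sample, a pattern found in 3.72% of all genes tested, and the opposite pattern in 0.415%. The number of genes higher fell to 0 without mouse 8 or without mouse 10, to 4 without mouse 7, 6 without mouse 2, 9 without mouse 9 and 21 without mouse 6, and rose to 140 without mouse 5. With DESeq2, 284 genes were higher and 17 lower (1.35% and 0.0809% of 21009 genes).

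Of the 34 genes, 30 were protein coding and 10 were on the epididymal gene lists, namely Adam7, 4 beta-defensins (Defb2, Defb11, Defb28 and Defb40) and 5 whey acidic protein (WAP) domain genes (Wfdc6b, Wfdc8, Wfdc10, Wfdc15b and Wfdc16). The other 24 were on no list. The largest fitted difference was that of the predicted gene Gm34701, which had 114 counts in the Crisp1-high samples and 1 count in the Crisp1-low samples, a ratio of 123 after scaling to depth (exact 95% interval 21.6 to 4894, counting error only). Ces5a, a carboxylesterase secreted in the epididymis, was at 356 CPM in mouse 7, 271 CPM in mouse 2, 137 CPM in mouse 6 and 151 CPM in mouse 5, and at 1.60 to 17.2 CPM in the Crisp1-low samples. Serpina16, of the serine protease inhibitor family, was at 164, 120.0, 108 and 101 CPM in mice 7, 2, 6 and 5 and at 0.925 to 9.94 CPM on the low side. Both genes thus had the 4 high samples well apart from the 4 low ones, with mouse 1 lowest in each. The remaining genes among the 15 with the largest differences were Spink10, a Kazal-type protease inhibitor (4.93), Gm17732 (4.81), Cyp4a12a, a fatty acid hydroxylase that is regulated by androgen (4.60), and Atp13a4, a P-type ATPase (4.35). Ptgds, the lipocalin-type prostaglandin D synthase, was highest in mouse 5 (178 CPM), followed by mouse 7 (119 CPM), mouse 2 (78.9 CPM) and mouse 6 (74.4 CPM), and the Crisp1-low samples had 6.42 to 14.7 CPM. Prom2, a membrane protein of epithelial cells, was at 80.9 to 225 CPM on the high side and 5.24 to 19.7 CPM on the low side.

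The genes whose log2 CPM was most like Crisp1 over the 8 samples were Defb43 (r = 0.994), Cwh43 (0.987), Abcb5 (0.984), the calcium channel Trpv6 (0.983), Serpina16 (0.980), Ly6f (0.979), the glutamate transporter Slc1a1 (0.979), Wfdc15b (0.978), Tmem238l (0.978) and Wfdc16 (0.976). These values are descriptive, since the samples share the split that chose them. Defb43, a beta-defensin, was at 12.5, 12.9, 8.70 and 12.0 CPM in mice 7, 2, 6 and 5, at 1.67 CPM in mouse 9, 1.55 CPM in mouse 8 and 0.863 CPM in mouse 10, and at 0 counts in mouse 1. The level of Slc1a1 differed less between the sides, 7.30 to 10.4 CPM against 2.16 to 4.91 CPM.

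Besides Crisp1, 84 genes were listed as epididymal, of which 70 had at least 1 count, 14 had none and 34 passed the filter on low counts. Their summed level was 2094 CPM in mouse 7, 2362 CPM in mouse 2, 432 CPM in mouse 6 and 471 CPM in mouse 5, against 41.3 CPM in mouse 9, 99.4 CPM in mouse 8, 65.9 CPM in mouse 10 and 27.1 CPM in mouse 1. The sides did not overlap (1339.5 ± 1031 and 58.4 ± 31.7 CPM, SD, n = 4 each), but the Crisp1-high samples formed a pair at over 2000 CPM and a pair below 500 CPM. Of the 70 genes with a count, 62 (88.6%) had their highest level in mouse 2 (43 genes) or mouse 7 (19 genes) and 6 in mouse 5. Among the 34 genes called higher, by contrast, mouse 7 was highest for 19, mouse 5 for 10 and mouse 2 for 5. Mouse 6 was highest for none in either set.

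Lipocalins and RNase A family genes divided the Crisp1-high samples. Lcn5, the epididymal retinoic acid-binding lipocalin, was at 298 CPM in mouse 7 and 479.7 CPM in mouse 2 but had 0 counts in mice 6 and 5. On the low side it had 0 counts in mouse 9, 6.03 CPM in mouse 8, 10.4 CPM in mouse 10 and 5.98 CPM in mouse 1. The sides therefore overlapped for Lcn5, and 3 Crisp1-low samples lay above 2 Crisp1-high samples. Rnase9, a catalytically inactive RNase-like protein of the epididymis, was at 170.1 CPM in mouse 7 and 239 CPM in mouse 2, against 15.8 CPM in mouse 6 and 0.824 CPM in mouse 5, with 1.24 to 6.20 CPM in the Crisp1-low samples. Its neighbour Rnase12 followed the sides (40.4, 43.9, 13.6 and 4.40 CPM in mice 7, 2, 6 and 5 and 0.432 to 1.93 CPM on the low side). Lcn12 was instead at 5.50 CPM in mouse 5, close to mouse 7 (5.78 CPM) and mouse 2 (4.89 CPM), and at 0.811 CPM in mouse 6. Lcn9 and Lcn10 had no count in any sample, and Lcn6, Lcn8 and Rnase10 stayed below 0.5 CPM.

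The 10 listed genes of the proximal duct, among them Adam7 and Lcn5, summed to 86.3 to 911 CPM on the high side. On the low side their sum was 6.31 to 21.1 CPM. Several other genes of this part of the duct were at or near 0 in most samples. The 4 listed cystatins, among them Cst8 and Cst11, which encode inhibitors of cysteine proteases, reached at most 0.119 CPM together, which is under 3 counts. Ros1, a receptor tyrosine kinase of the initial segment, was at 8.21 CPM in mouse 7 and 7.15 CPM in mouse 2 and at 0.27 CPM or less in the other 6 samples. Gpx5, a secreted glutathione peroxidase of the caput, was at 69.1 CPM in mouse 2, 5.49 CPM in mouse 7, 3.02 CPM in mouse 5 and 0 in mouse 6, and at 0.27 CPM or less on the low side. Only mouse 2 thus held Gpx5 above 10 CPM.

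Of 13 listed protease inhibitor genes, 10 were tested and 5 of these called, with 0.208% called over all genes, and nothing is read from this count. Wfdc10 was at 87.6 CPM in mouse 7, 76.3 CPM in mouse 2, 26.4 CPM in mouse 6 and 82.0 CPM in mouse 5, and at 0.494 to 3.91 CPM in the Crisp1-low samples. Wfdc15b was highest in mouse 5 (73.7 CPM), with 48.2 CPM in mouse 7, 38.1 CPM in mouse 2 and 31.6 CPM in mouse 6, and 0.0617 to 3.29 CPM on the low side. Wfdc6b was also highest in mouse 5 (19.2 CPM), with 13.6, 16.0 and 4.94 CPM in mice 7, 2 and 6. Wfdc13 did not follow them: it was at 215 CPM in mouse 7, 179.5 CPM in mouse 2 and 59.2 CPM in mouse 6 but at 2.34 CPM in mouse 5, which was below mouse 9 (3.96 CPM), mouse 10 (6.09 CPM) and mouse 8 (11.4 CPM). Spint4, a Kunitz-type inhibitor, was at 80.5 CPM in mouse 7 and 100.2 CPM in mouse 2, at 0.147 CPM in mouse 6 and at 0 in mice 5 and 9, whereas mice 8, 10 and 1 had 5.90, 2.59 and 4.01 CPM. Eppin, which coats sperm and inhibits proteases, was at 16.6, 12.5, 5.90 and 1.37 CPM in mice 7, 2, 6 and 5 and below 1 CPM on the low side.

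The 5 WAP domain genes called higher (Wfdc15b, Wfdc8, Wfdc6b, Wfdc16 and Wfdc10) formed the only chain of 3 or more called genes with starts at most 500 kb apart. They lay within 443 kb of chromosome 2, from base 164214454 to 164657368 in mm10, together with 31 genes of the table, 17 of them tested and 4 without a count. In 8 of the 17 every Crisp1-high sample was above every Crisp1-low sample, against 3.72% of all genes tested, in a span that was chosen by its called genes. The same span holds the seminal vesicle gene Svs2, which had no count in any Crisp1-high sample.

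Of 43 beta-defensin genes, which encode small cationic secreted proteins, 34 had a count and 15 were tested, 4 of them called (0.208% over all genes, a description as before). Defb28 was at 76.7, 61.9, 32.9 and 41.1 CPM in mice 7, 2, 6 and 5 and at 0.555 to 4.85 CPM in the Crisp1-low samples. Defb2 was at 17.5 CPM in mouse 5, 4.39 CPM in mouse 7, 3.22 CPM in mouse 2 and 2.73 CPM in mouse 6, and at 0.311 CPM or less on the low side. Both genes kept the sides apart but differed in which Crisp1-high sample was highest. Defb22, known to be part of the sperm coat, was at 184 CPM in mouse 7, 121 CPM in mouse 2, 49.0 CPM in mouse 6 and 1.51 CPM in mouse 5. Defb23 was at 77.1, 95.1, 3.24 and 0.0687 CPM in the same order. In mouse 5, both were below the level in mouse 8 (10.6 and 3.42 CPM).

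**Figure D2:**
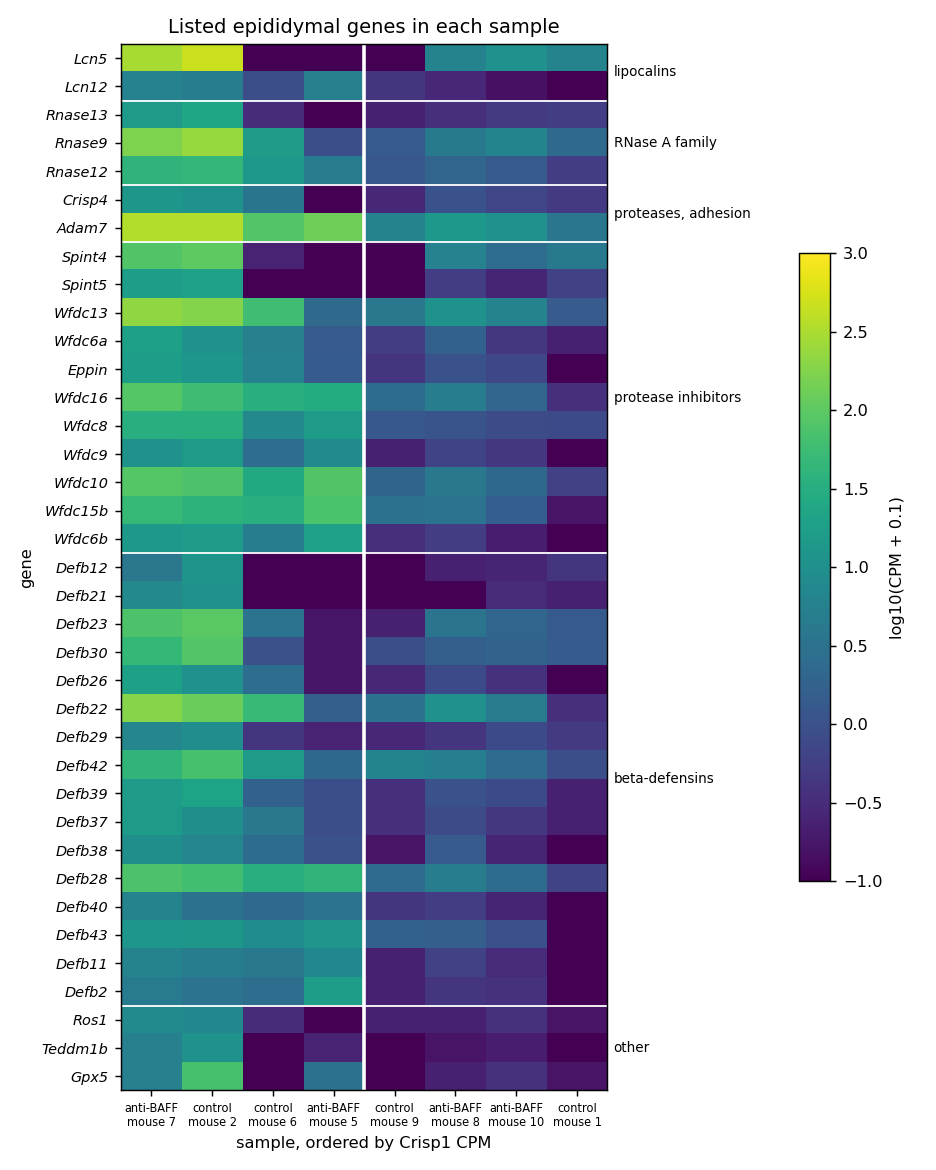
Levels of the 37 listed epididymal genes that reached 5 CPM in any sample (rows, grouped by family and ordered within a family by the level in mouse 5 relative to the highest sample), as log10(CPM + 0.1), in the 8 samples ordered by Crisp1 (columns). The white vertical line parts the Crisp1-high from the Crisp1-low samples. Lcn5 and Spint5 are dark in mice 6, 5 and 9 and brighter in mice 7 and 2, whereas Wfdc10 and Wfdc15b are bright in all 4 Crisp1-high samples.

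Over the 45 listed genes at 1 CPM or more in both mouse 2 and mouse 7, a level of 1 CPM was reached by 26 genes in mouse 6 and 21 genes in mouse 5. Mouse 5 had under 3 counts for 17 of the 45 genes and mouse 6 for 11, and 10 genes were under 3 counts in both (Defb12, Defb15, Defb19, Defb20, Defb21, Defb41, Lcn5, Spint4, Spint5 and Teddm1b). In 23 of the 45, mouse 2 and mouse 7 were each over 10 times mouse 5, while 4 (Defb2, Defb11, Wfdc6b and Wfdc15b) were highest in mouse 5. The Crisp1-low samples showed no simple order either, with under 3 counts for 20 genes in mouse 9, 10 in mouse 8, 9 in mouse 10 and 25 in mouse 1.

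Expressed per 100 Crisp1 counts of the same sample, which sets the amount of Crisp1 RNA equal, Serpina16 was at 16.0 in mouse 7, 16.1 in mouse 2, 18.3 in mouse 6 and 19.0 in mouse 5. In the Crisp1-low samples this ratio was 8.83 in mouse 9, 10.6 in mouse 8, 17.1 in mouse 10 and 31.3 in mouse 1, the last from 15 counts (exact 95% interval 16.3 to 56.8). Wfdc15b was at 4.71, 5.10 and 5.33 in mice 7, 2 and 6 and at 13.9 in mouse 5 (12.98 to 14.8), and between 2.08 and 4.19 in the low samples. Both Serpina16 and Wfdc15b were among the 10 genes most like Crisp1, whose counts divide these ratios. A narrow range was thus partly fixed by how they were picked, and nothing is read from it. Lcn5 was shown because it was absent from part of the Crisp1-high samples, so nothing is read from its wider range either. The ratio of Lcn5 was 29.1 in mouse 7 and 64.2 in mouse 2, and 0 in mice 6 and 5, where 3 counts would correspond to 0.0373 and 0.0387. In the Crisp1-low samples it was 0 in mouse 9 (0.195 for 3 counts), 6.44 in mouse 8, 30.0 in mouse 10 and 202 in mouse 1 (142 to 292). Mouse 1, the sample with the least Crisp1, thus had 97 counts of Lcn5 against 48 of Crisp1. Rnase9 and Defb23 were likewise high in mouse 1, at 77.1 and 41.7, and low in mouse 5, at 0.155 and 0.0129. They did not follow Lcn5 everywhere, since in mouse 6, where Lcn5 had no count, they were at 2.66 and 0.547.

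**Figure D3:**
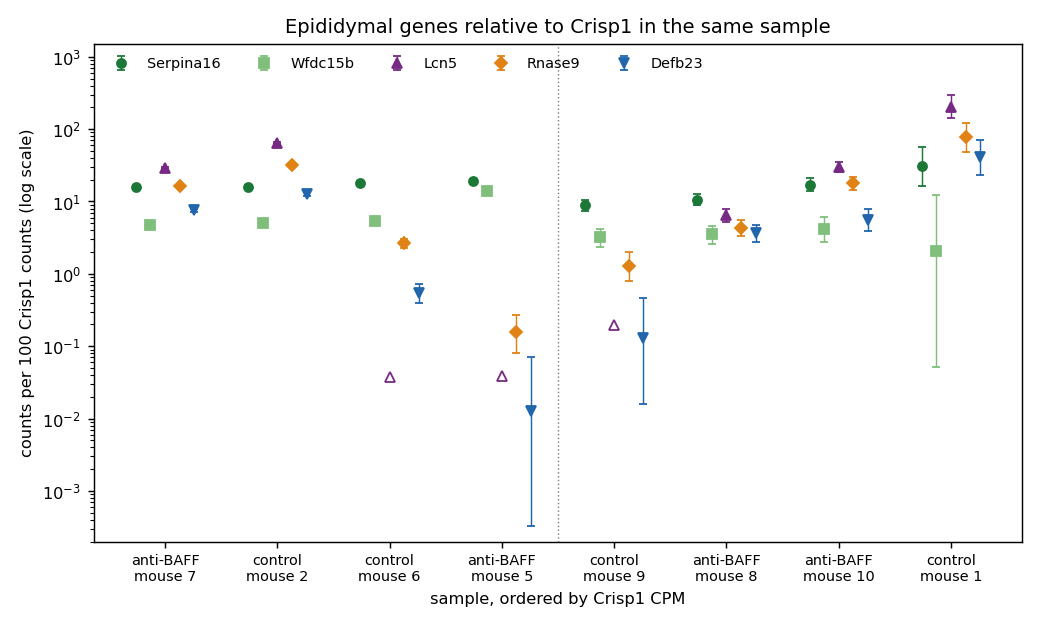
Counts of 5 genes per 100 Crisp1 counts of the same sample (y axis, log scale) in the 8 samples ordered by Crisp1 (x axis), with exact 95% intervals that cover counting error only. Open triangles mark Lcn5 samples without a count, drawn at the level of 3 counts. Serpina16, picked among the genes most like Crisp1, stays between 8.83 and 31.3, and Lcn5, shown for its absence from part of the Crisp1-high samples, ranges from 0 to 202. The contrast is thus partly fixed by the choice of genes.

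Markers of other epithelial and male tract cells were compared between the sides in the same way, and none of them was called in either direction. The 11 general epithelial genes were all on the higher side in the Crisp1-high samples (median log2 difference 1.18), though their sums overlapped (237 to 509.6 CPM and 108 to 372 CPM). Cldn3, a tight junction protein, was at 49.0, 51.6, 24.6 and 20.1 CPM in mice 7, 2, 6 and 5 and at 3.89 to 10.8 CPM on the low side. Krt8, a keratin of simple epithelia, had a log2 difference of only 0.32 (SE 0.30). The 5 listed transcription factors of the Wolffian duct, from which the epididymis develops, had overlapping sums (69.0 to 112 CPM and 41.8 to 84.4 CPM). Their median log2 difference was 1.48 (range 0.07 to 2.86). Pax2, with the largest difference among them, was at 15.1, 16.2, 10.2 and 7.56 CPM in mice 7, 2, 6 and 5 and at 3.09, 1.86, 1.13 and 0.432 CPM in mice 9, 8, 10 and 1. The 5 genes of clear cells, which acidify the duct, had overlapping sums of 200.04 to 296 CPM on the high side and 209.5 to 296 CPM on the low side, and 3 of the 4 tested had a log2 difference above 0 (range -0.19 to 5.46). Most of the sum was Atp6v0d2, which macrophages also make. Foxi1, the transcription factor of clear cells, was at 3.70 CPM in mice 7 and 2, 0.811 CPM in mouse 6 and 1.24 CPM in mouse 5, and at most at 0.0621 CPM, which is 1 count, in the low samples. Smooth muscle genes, which could come from the duct wall or from vessels, had a median difference of 0.03 over 9 genes.

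Genes of spermatids and sperm kept the order of the sides. The 10 listed genes summed to 15.5 CPM in mouse 7, 18.9 CPM in mouse 2, 16.4 CPM in mouse 6 and 33.5 CPM in mouse 5, against 6.25 CPM in mouse 9, 2.67 CPM in mouse 8, 2.48 CPM in mouse 10 and 0.0617 CPM in mouse 1. All 8 tested had every Crisp1-high sample above every Crisp1-low sample, as did 3.72% of all genes tested, with a median log2 difference of 2.87 and 0 called. Genes this low may have passed the filter on low counts mainly through the Crisp1-high samples, so nothing is read from this count or median. Prm2, a protamine that packs sperm DNA, was at 7.63 CPM in mouse 5, 5.01 CPM in mouse 6, 3.47 CPM in mouse 7 and 3.40 CPM in mouse 2, and at 0 to 2.10 CPM on the low side. The summed sperm genes were thus highest in mouse 5, where Lcn5 and Spint4 had no counts. The 5 listed genes of Leydig cells had overlapping sums, 12.99 to 36.6 CPM on the high side and 9.01 to 17.4 CPM on the low side. Of the 3 tested, 2 had a log2 difference above 0, with a median of 0.0019 (range -0.51 to 4.32). The largest difference was that of Cyp17a1, the steroid hydroxylase of Leydig cells. It was at 16.2, 10.9 and 7.30 CPM in mice 7, 2 and 6 but at 0.0687 CPM in mouse 5, and at most at 0.684 CPM in the low samples. Insl3, the defining hormone of Leydig cells, had a log2 difference of -0.51 and was at 0.867 to 1.93 CPM in all samples.

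The Crisp1-low samples were not free of RNA of the male tract. Tgm4, a transglutaminase secreted by the prostate, was at 567 CPM in mouse 8, 47.0 CPM in mouse 10, 16.3 CPM in mouse 9 and 1.11 CPM in mouse 1, and below 1 CPM in the 4 Crisp1-high samples. Pbsn (probasin), a secretory protein of the prostate epithelium, was at 263 CPM in mouse 8, 23.9 CPM in mouse 10 and 3.03 CPM in mouse 9, and had no count in the other 5 samples. Svs2, Svs4 and Svs5, which encode seminal vesicle secretory proteins, were at 40.9, 20.9 and 41.0 CPM in mouse 9 and below 0.6 CPM in every other sample. Svs1 was at 21.5 CPM in mouse 9 and at 4.47 CPM in mouse 5. Prostate genes were thus seen above 3 CPM in 3 of 4 Crisp1-low samples and in no Crisp1-high sample, and neither Tgm4 nor Pbsn passed the test of treatment in the fit with side (log2 difference for Tgm4 4.21, SE 1.62, adjusted p = 1.00, edgeR), although both were highest in the anti-BAFF Ab-treated mice 8 and 10. With treatment only, 1 prostate gene was tested, at a log2 difference of 5.06. Its unadjusted p was below 0.05 (edgeR), as for 1.9% of all genes, and its adjusted p was not. Whether these transcripts bear on the other differences was not tested.

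**Figure D4:**
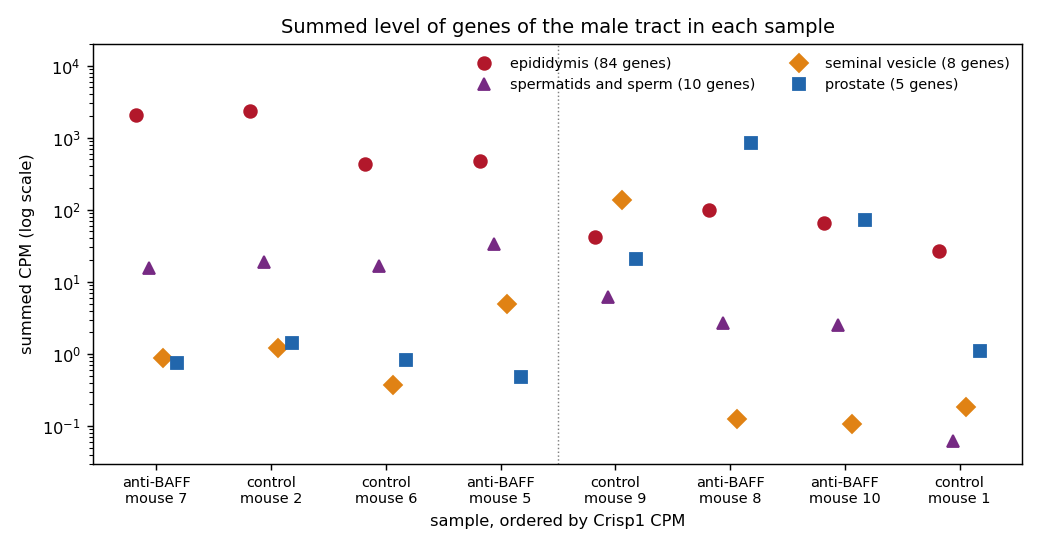
Summed CPM (y axis, log scale) of the listed genes of epididymis (84 without Crisp1), spermatids and sperm (10), seminal vesicle (8) and prostate (5) in each of the 8 samples (x axis, ordered by Crisp1). Prostate genes reach 848 CPM in mouse 8 and seminal vesicle genes 137 CPM in mouse 9, both Crisp1-low, while the epididymal sum is above 400 CPM in the 4 Crisp1-high samples and below 100 CPM in the others.

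Cell types of the fat pad itself did not divide by side. The median log2 difference was -0.06 for the 10 macrophage genes, -0.17 for the 7 adipocyte progenitor genes, 0.08 for the 7 adipocyte genes, -0.03 for the 7 mesothelial genes, -0.13 for the 8 endothelial genes and -0.18 for the 8 T cell genes, and 0 of these genes were called. The 10 B cell genes had a median of 0.29 and overlapping sums (20.6 to 63.0 CPM and 22.4 to 58.0 CPM). Neutrophil genes (median 0.76 over 6 tested) were set by mouse 5, with S100a8 and S100a9, which form calprotectin, at 36.3 and 43.2 CPM there and at 0.958 to 4.63 CPM in the other 7 samples.

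The treatment comparison asks which genes depend on BAFF neutralization, and with side as a covariate it does not use the contrast that defined the sides. None of the listed epididymal genes passed it, 0 of 34 tested with side and 0 of the 30 tested in the fit with treatment only. In the latter, 0 of the 30 also had an unadjusted p below 0.05 (edgeR), against 1.9% of all genes. These genes were mostly higher in the same samples, and may have passed the filter on low counts mainly through the Crisp1-high samples. Since the sides are balanced by treatment, they are not separate tests, and nothing is read from these counts. Adam7 differed by 0.15 on the log2 scale (SE 1.41, adjusted p = 1.00, edgeR) with treatment only and by 0.64 (SE 0.52, adjusted p = 1.00) with side as a covariate. Adam7 parts the 8 samples exactly as Crisp1 does, so the smaller SE with side was fixed in advance and nothing is read from it. Crisp1 differed by 0.21 (SE 1.30, adjusted p = 1.00) with treatment only. With an SE of 1.41, a treatment difference of Adam7 of that size, and also a larger one, could go undetected in the fit with treatment only.

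With side as a covariate, 9 genes were lower and 0 higher in anti-BAFF Ab-treated mice at an adjusted p of 0.05 (edgeR), which is 0.0549% of 16380 genes, and before adjustment (p of 0.05) 215 were lower and 113 higher. DESeq2 called 74 lower and 3 higher. Of the 9 genes, 8 were immunoglobulin genes and the other was Jchain, whose product links IgM and IgA into polymers. With treatment only, 9 genes were also lower (0.0564% of 15962), of which 5 were shared: Jchain, Igkv14-126, Ighv11-2, Iglc2 and Iglv2. Ighv11-2, a heavy chain variable gene, was at 85.5 CPM in mouse 1, 49.3 CPM in mouse 2, 51.6 CPM in mouse 6 and 39.97 CPM in mouse 9, and at 3.07 to 4.26 CPM in the anti-BAFF Ab-treated mice, so that the treatments did not overlap on either side. Its log2 difference was -3.92 (SE 0.26, adjusted p = 0.00245) with side and -3.93 (SE 0.26, adjusted p = 0.000631) without.

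Adding the side gained 4 genes and lost 4. Iglv1, a lambda variable gene, was gained, with a difference of -1.98 (SE 0.20, adjusted p = 0.0217) against -2.05 (SE 0.33, adjusted p = 0.147) without side. Within the control Ab-treated mice it was at 22.2 and 16.9 CPM in the Crisp1-low mice 1 and 9 and at 10.2 and 8.18 CPM in the Crisp1-high mice 2 and 6. Ighv5-17 had the same pattern more strongly, at 31.3 and 16.9 CPM in mice 1 and 9 and 3.52 and 3.83 CPM in mice 2 and 6, and was gained at -5.57 (SE 0.50, adjusted p = 0.0163) against an adjusted p of 0.203 without side. Igkv19-93 and Ighv7-3 were gained in the same way. Ighm, the IgM heavy chain, was lost, at -2.34 (SE 0.29, adjusted p = 0.0542) with side and -2.36 (SE 0.30, adjusted p = 0.0448) without, as were Igkc, Pou2af1 and Ighv12-3. The 4 genes lost had adjusted p-values of 0.0542 to 0.0587 with side. The number of genes lower ranged from 2 (without mouse 6 or mouse 7) to 21 (without mouse 1), with 3 without mouse 2, 8 or 10 and 4 without mouse 5.

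**Figure D5:**
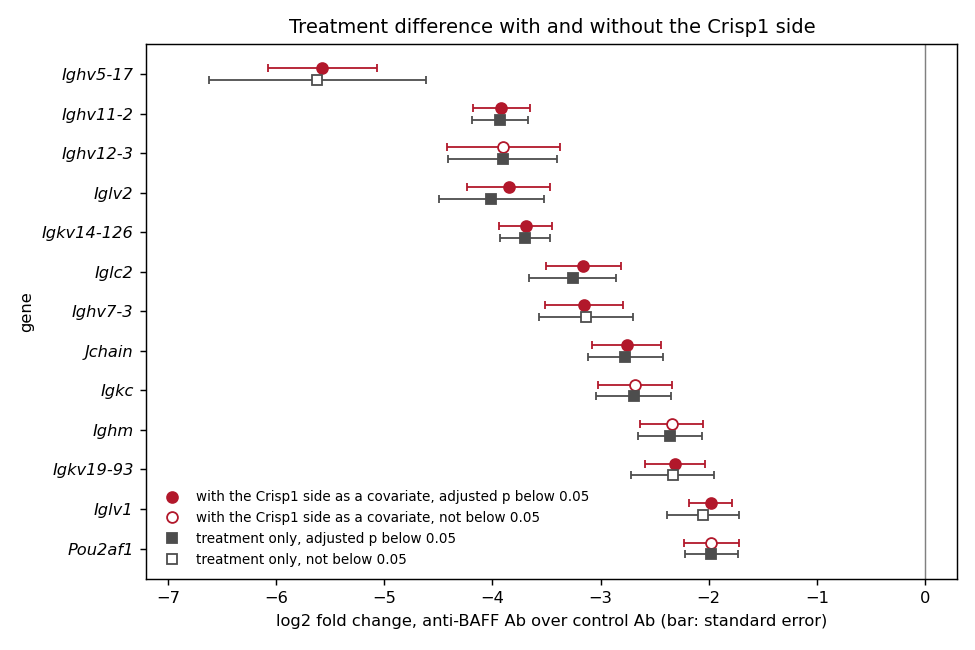
Log2 fold change of anti-BAFF Ab over control Ab (x axis, bars are standard errors) for the 13 genes called in either fit (y axis), with the Crisp1 side as a covariate (circles) and with treatment only (squares). Filled symbols have an adjusted p below 0.05, and all 13 genes lie between -5.62 and -1.98 in both fits.

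A difference of the treatment effect between the sides was tested by the interaction term. No gene passed an adjusted p of 0.05 (0% of 16958 genes, edgeR), while before adjustment 161 genes were higher and 275 lower (p of 0.05), and DESeq2 called 2 higher and 6 lower. For Adam7 the interaction was -1.22 (adjusted p = 0.871) and for Ighv11-2 0.38 (adjusted p = 0.888), with 2 mice per treatment and side. Without mouse 9, which leaves mouse 1 as the single control Ab-treated Crisp1-low sample, assumed to vary like the rest, 554 genes were higher and 923 lower. Leaving out any other mouse gave 0.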

How the data were processed

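SVF RNA of 8 mice was sequenced by a company, and the authors deposited unnormalized read counts for each gene and mouse. Gene coordinates and lengths, other values in the deposited table, were used only to give positions. The submitters' processing notes name mm10. The aligner, counter and annotation release are not given in the sources used here. Groups and mouse numbers were taken from the labels. No libraries of a group were repeats (smallest chi-square per degree of freedom 7.91).

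CPM was the deposited count x 1000000 / column total. Treatment and side were terms of an edgeR fit (version 4.0.16, R 4.3.3) to these counts (filterByExpr with a minimum count of 10, TMM, glmQLFit, glmQLFTest), Benjamini-Hochberg adjusted over all genes tested. SEs were derived from the F statistic. DESeq2 1.42.0 was an alternative. The edgeR script was tested on simulated data. P-values measure the spread between mice. Exact intervals (95%) and the floor of 3 counts cover counting error only. Reads of near-identical gene family members (immunoglobulin, defensin) may be divided among them.

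The sides, members and lists were chosen with earlier results of these data known. Named genes were those of the lists, the 15 with the largest difference between sides each way among genes called whose samples did not overlap, the 10 with the highest Pearson r with Crisp1 (log2 CPM, prior count 2), those in chromosomal chains of called genes, and those called by treatment or interaction. Ptgds, Prom2, Ighm, Igkc, Pou2af1 and Ighv12-3 were added after their values were seen, as were 9530053A07Rik, Ren1 and Arg1. Promoter sequences were taken from RefSeq (GRCm38.p6), which matched 25 of the 34 genes called and 64 of the 84 listed. Alternatives were RLE, library size only, TMM without epididymal genes, no filter, the robust option, log2 Crisp1 as a continuous term, sides from Adam7, fits without treatment or side, DESeq2 and leaving out each mouse.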

Additional observations from a re-analysis of the deposited data

Results flagged for a closer look

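Summed gene lists were examined for a single sample standing apart from the other 3 (Dixon's test), in 58 groups of 4 samples, each 1 list in 1 side. In 6 of these groups a sample stood apart, where chance gives about 1 in 20, or 2.9. Some lists share genes, so the groups are not separate tests. Prostate genes in mouse 8 (848 CPM, others 1.11 to 71.8 CPM) and seminal vesicle genes in mouse 9 (137 CPM, others 0.108 to 0.185 CPM) stood apart among the Crisp1-low samples. Epididymal cystatins in mouse 10 also did, on a level of 0.0539 CPM, which is 1 count, against 0 in the others. Among the Crisp1-high samples, neutrophil genes stood apart in mouse 5 (283 CPM, others 57.6 to 89.3 CPM), as did mitochondrial transcripts in the same sample, which were lower there (11537 CPM, others 13815 to 14044 CPM). The clear cell list stood apart in mouse 7 (296 CPM, others 200.04 to 216 CPM), of which 285 CPM were Atp6v0d2, a proton pump subunit also made by macrophages, while Foxi1 was at 3.70 CPM in both mouse 7 and mouse 2.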

How the results depend on the processing

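No paired analysis was possible because the mouse numbers differ between the groups. Sides from Adam7 were the same for all 8 samples, so that fit repeated the main one and was no check. The 34 genes higher in Crisp1-high samples stayed 34 with RLE or the robust option, and were 50 with library size only and 26 with TMM computed without epididymal genes. They were 236 with log2 Crisp1 as a continuous term, 284 with DESeq2, 682 without the filter and 77 without the treatment term, and 0 to 140 when each mouse was left out. Genes lower were 2, 17 and 131 with the continuous term, DESeq2 and no filter, and 0 to 12 when each mouse was left out (12 without mouse 1). By treatment with side as a covariate, genes higher were 3 with DESeq2, 93 without the filter and 0 to 2 when each mouse was left out, and genes lower were 2 with log2 Crisp1 as a continuous covariate, 74 with DESeq2, 210 without the filter and 2 to 21 when each mouse was left out. Interaction calls were 2 higher and 6 lower with DESeq2, 127 and 228 without the filter, and 0 to 554 higher and 0 to 923 lower when each mouse was left out, the larger values without mouse 9. The cause of these shifts was not tested. The treatment difference of Adam7, not significant in any fit, turned to -0.24 with the continuous covariate. Over 42 values of single genes, the alternatives other than leaving out a mouse left 323 on the same side of the threshold, 38 newly past it, 15 no longer past it and 1 in the other direction, and leaving out a mouse left 198, 7 and 131. The 323 include the values with sides from Adam7, which could not differ from the main fit. The summed epididymal level moved by less than 1 SD in each alternative. The filter, the model and the covariates do not enter this sum, so for them this was fixed in advance and was no check. Depth limits statements on genes under 3 counts, and no value separates the number of epididymal cells from RNA per cell.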

Other observations

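Further transcripts, chosen after their values were seen, varied between single samples. 9530053A07Rik (chromosome 7) was at 5483 CPM in mouse 8, 539 CPM in mouse 10 and 180.3 CPM in mouse 9, and at 0.62 CPM or less in the other 5 samples. Ren1, the renin gene, was at 162 CPM in mouse 8, 10.9 CPM in mouse 10 and 7.73 CPM in mouse 9, and at 0.59 CPM or less in the others, so that both genes were highest in the 3 samples that held probasin. Arg1, which encodes arginase 1, was at 123 CPM in mouse 5 and at 2.60 to 8.88 CPM in the other 7 samples. Upk3a, a uroplakin of the bladder epithelium, was at 17.5 CPM in mouse 2, 12.2 CPM in mouse 9, 3.67 CPM in mouse 10 and 1.65 CPM in mouse 5, and had no count in the other 4 samples.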
